A study of Oryza sativa Japonica Group with 59 samples.

Results

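The short arm of rice chromosome 4 was described here through its annotated loci. All loci named LOC_Os04g with a number below 17000 were taken, which gave 1420 of the 55986 features in the expression files, or 2.54%. They make up 26.7% of the loci of chromosome 4. The remaining 3897 loci, numbered 17000 or more, served as the long arm. Locus numbers follow the order along the chromosome, but the expression files hold no coordinates, so the boundary rests on the number alone, and chromatin state was not measured in these files.

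RNA was sequenced from isolated reproductive cells of Oryza sativa ssp. japonica variety Zhonghua11 (ZH11). Wild type (WT) plants, regenerated from tissue culture, gave meiocytes, unicellular microspores, eggs and zygotes (3 libraries each) and sperm (2 libraries). The cmt3b mutant gave meiocytes, sperm and zygotes (3 libraries each) and eggs (2 libraries), and the cmt3a mutant gave eggs only (2 libraries). The labels give all zygote libraries, WT and cmt3b, the same collection window, several hours after fertilization. Both mutants were CRISPR/Cas9 knockouts from which the Cas9 transgene had been removed. The labels do not state which line or how many plants stood behind a library, so p-values measure the spread between these libraries, which may be technical. The comparisons ask how loci of the arm respond when a CHG methyltransferase is lost, and how they differ between wild type cell types.

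The edited alleles of the sequenced lines are not given in the sources used here. The mutants were made with these guide sequences (5′ to 3′, DNA letters as the study lists them), shown because every mutant comparison uses those mutants:
CMT3a sgRNA-1: acgctggtatgcaagcccaa
CMT3a sgRNA-2: acaacattatgagtgggaag
CMT3b sgRNA-1: aggggaccgagctcgacagt
CMT3b sgRNA-2: acataatcacccatactcgc

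CHG methylation in plants is maintained by chromomethylases of the CMT3 family, which bind nucleosomes carrying histone H3 lysine 9 dimethylation and methylate the DNA there. Heterochromatic regions hold many transposable elements and comparatively few transcribed genes, and the short arm of rice chromosome 4 is a known example. CMT3a and CMT3b are the rice members studied, encoded by LOC_Os10g01570 and LOC_Os03g12570.

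The libraries held 9240046 to 25610860 assigned counts (median 16151914). Counts of the pair of WT sperm files agreed within sampling noise (chi-square per degree of freedom 0.24, against 1.37 to 6.73 for every other pair of libraries of a group), so they were counted as 1 sample and no test was made on sperm. In cmt3b cells, transcripts of CMT3b (LOC_Os03g12570) fell against WT in egg (5.51 to 5.90 CPM in WT, 0 and 0.0878 CPM in cmt3b), meiocyte (log2 fold change -2.10) and zygote (-1.22), and were lower in sperm (-3.02, no test). In cmt3a eggs, CMT3a (LOC_Os10g01570) transcripts fell by 1.11 on the log2 scale, and those of CMT3b fell by 2.93. CMT3a was also lower in cmt3b meiocytes, with a mean of 10.4 TPM (scaled for length and depth) against 28.5 TPM in WT. From WT to cmt3b, its mean went from 12.8 to 18.8 TPM in eggs and from 115 to 103 TPM in zygotes. In sperm it was 1.72 TPM in WT and 1.18 TPM in cmt3b. The meiosis list was detected whole in WT meiocytes (6 of 6 genes, summed 429 to 442 CPM, counts scaled to the library total). It was also detected whole in WT microspores, eggs and zygotes, so whole detection did not single out meiocytes. Its sum was lower in WT eggs (150 to 151 CPM), zygotes (154 to 163 CPM) and sperm (154 to 157 CPM), and lowest in WT microspores. In cmt3b meiocytes the list summed to 310 to 327 CPM, below WT meiocytes. Both gamete fusion genes reached a summed 4681 to 4703 CPM in WT sperm. Of 2 egg and zygote genes, 1 was at 0 in every WT egg and zygote library, so that list did not identify these cells. A list of 5 tapetum genes summed to 36906 to 44824 CPM in WT microspores and 1629 to 1675 CPM in WT meiocytes.

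The arm was sparsely detected. A locus was called detected in a group when it reached 0.5 CPM or more in every library. In WT cells this held for 235 short arm loci in meiocytes (16.5%), 268 in microspores (18.9%), 250 in sperm (17.6%), 228 in eggs (16.1%) and 224 in zygotes (15.8%). On the long arm, 38.2% to 44.0% of loci were detected in the same 5 groups. The mutant groups gave counts of the same order, with 238 short arm loci in cmt3b meiocytes, 230 in cmt3b sperm, 223 in cmt3b eggs, 221 in cmt3b zygotes and 231 in cmt3a eggs.

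**Figure D1:**
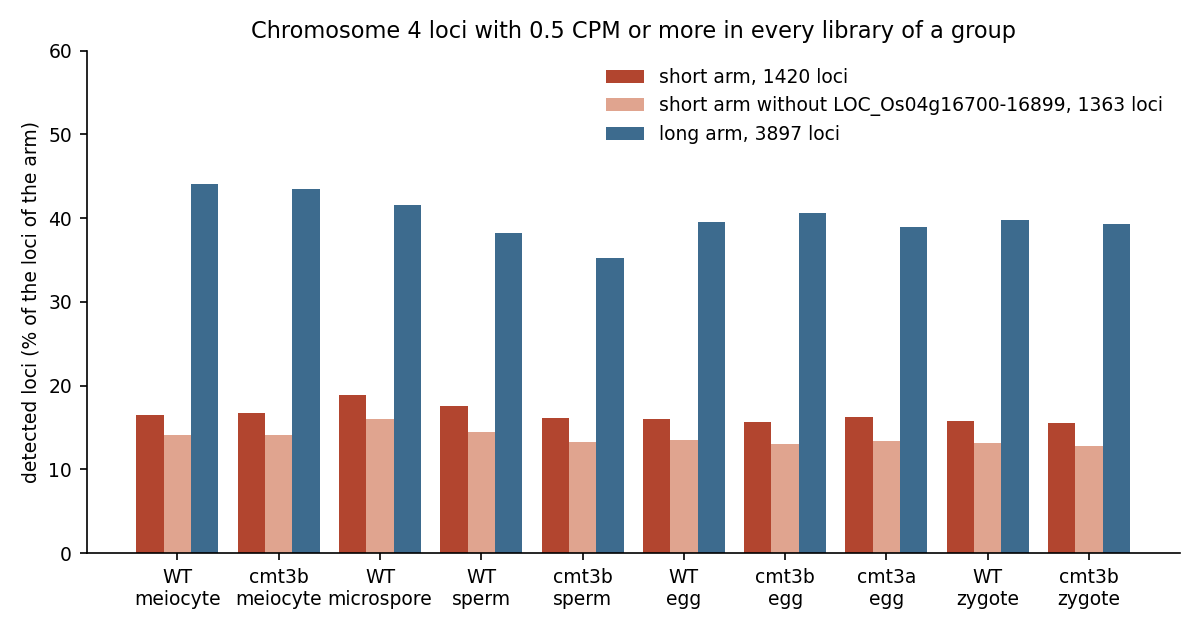
Bars give the percentage of loci with 0.5 CPM or more in every library of each of the 10 groups, for all short arm loci, for the short arm without LOC_Os04g16700 to LOC_Os04g16899, and for the long arm. The short arm stayed between 15.6% and 18.9% in all groups, and the long arm between 35.2% and 44.0%.

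Over the 10 groups, 998 short arm loci (70.3%) were detected in none, against 38.6% of long arm loci. Among the 422 detected in at least 1 group, 119 were detected in all 10 (28.2%, against 33.5% on the long arm and 34.8% over all features). Another 111 were detected in a single group (26.3%, against 15.7% on the long arm and 15.3% over all features). Among WT cell types, 60 loci were detected in sperm alone, 38 in microspores, 18 in meiocytes, 5 in eggs and 2 in zygotes. Sperm, where WT is 1 sample, also led over all features, with 2942, followed by 1640 in microspores and 1449 in meiocytes. Mutant groups alone detected 32 of the 422 short arm loci, against 129 of 2393 long arm loci and 1569 of 31138 features. No count was recorded in any library for 104 short arm loci (7.32%) and 121 long arm loci (3.10%). The median level of detected short arm loci was 7.25 TPM, the deposited value scaled for length and depth, in WT meiocytes, against 8.61 TPM on the long arm, and 15.6 against 14.3 TPM in WT eggs. Without the block of loci described next, the short arm median was below that of the long arm in all 10 groups, at 6.29 TPM in WT meiocytes and 11.8 TPM in WT eggs.

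Detection was uneven along the arm. Of the loci numbered 1000 to 1999, 40.4% were detected in at least 1 group, and 40.2% of those numbered 2000 to 2999. The share was 10.1% for 3000 to 3999 and 10.3% for 7000 to 7999. The highest share, 51.1% (67 of 131), was in the last bin, 16000 to 16999. Most of these lay in a block of 57 loci, LOC_Os04g16700 to LOC_Os04g16899, of which 52 were detected and 43 were detected in all 10 groups. The split into block and other loci was made after the data were seen, so results given by block are descriptive. Outside the block, 15 of 74 loci of that bin were detected (20.3%).

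The block is 4.01% of the loci of the arm, and its loci are short, with a median length of 565 bases against 1393 for the other short arm loci. Only LOC_Os04g16820 and LOC_Os04g16830 carry an annotation in the study's tables, both as DNA-directed RNA polymerase subunit beta. A polymerase with such a subunit is encoded in the plastid genome of plants, which also encodes photosystem proteins and the large subunit of Rubisco. Reads of near-identical nuclear and plastid copies cannot be told apart in these counts, and no sequence of the loci was at hand to compare them, so the origin of the block's reads is uncertain.

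The block differed widely between groups. Its summed level was 890, 909 and 949 CPM in WT meiocytes and 5516, 5631 and 5618 CPM in WT microspores. The WT sperm sample held 1480 and 1440 CPM in its 2 files. WT eggs held 3068, 3006 and 3151 CPM, and WT zygotes 1595, 1577 and 1591 CPM. No 2 WT cell types overlapped, and microspores were highest.

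In the mutants the block was higher in every matched cell type. It summed to 3267, 3492 and 3308 CPM in cmt3b meiocytes, 3.66 times the WT mean. In cmt3b eggs it reached 4660 and 4499 CPM (1.49 times) and in cmt3b zygotes 3065, 3262 and 2827 CPM (1.92 times). The highest values were in cmt3b sperm, with 22791, 25162 and 25091 CPM (16.7 times), and in cmt3a eggs, with 22254 and 20927 CPM (7.02 times). No mutant group overlapped its WT group. The sums are shares of each library's counts. In bulk libraries they cannot tell a higher level per cell from a larger share of cells with these transcripts.

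The other 1363 loci of the arm did not follow. Together they took 0.595% to 0.600% of counts in WT meiocytes and 0.648% to 0.659% in cmt3b meiocytes. In sperm they took 0.433% and 0.435% in WT and 0.413% to 0.418% in cmt3b. Their share was lower in cmt3a eggs (0.506% and 0.491%) than in WT eggs (0.630% to 0.642%). These are shares of total counts, without the scaling used for the fold changes. With that scaling, the median log2 fold change of those tested in cmt3a eggs was 0.07. Single loci weighed in these sums. LOC_Os04g15920 had a mean of 731 CPM in WT and 1296 CPM in cmt3b meiocytes. LOC_Os04g11880 had a mean of 858 CPM in WT and 275 CPM in cmt3b sperm. The block thus made up 12.9% to 13.8% of the arm's counts in WT meiocytes and 84.5% to 85.9% in cmt3b sperm, and the whole arm went from 0.58% of counts in WT sperm to 2.70% to 2.93% in cmt3b sperm. The long arm took less in that comparison, from 8.60% to between 6.34% and 6.39%.

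**Figure D2:**
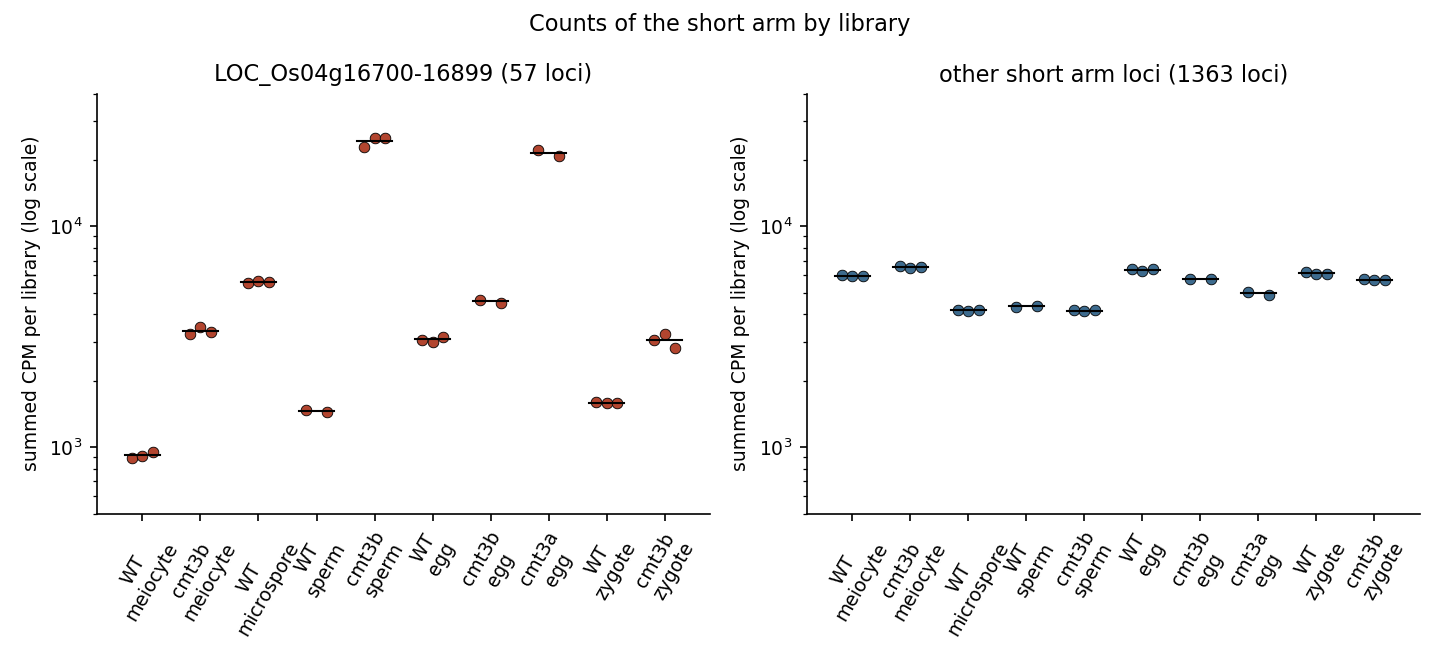
Each point is the summed CPM of 1 library on a log axis, with the group mean as a bar, for the 57 loci LOC_Os04g16700 to LOC_Os04g16899 (left) and the other 1363 short arm loci (right). The block ranged from 890 to 25162 CPM, while the other loci stayed between 0.413% and 0.659% of counts (4128 to 6587 CPM).

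Within the block the counts were concentrated. Its 5 leading loci held 44.4% to 51.4% of block counts in all groups other than WT sperm, where they held 64.2%. The first of these was LOC_Os04g16722 in every group but WT zygotes, where LOC_Os04g16886 led. LOC_Os04g16722 had 144, 169 and 149 CPM in WT meiocytes and 559, 575 and 614 CPM in cmt3b meiocytes. It had 425, 415 and 431 CPM in WT eggs, 959 and 938 CPM in cmt3b eggs, and 3666 and 3624 CPM in cmt3a eggs. In sperm it went from 704 and 689 CPM in WT to 5346, 5095 and 5008 CPM in cmt3b. The groups did not overlap in any of these pairs, and the order of the egg groups was WT, cmt3b, cmt3a.

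LOC_Os04g16886 followed another order. It had 410, 400 and 404 CPM in WT eggs and 365 and 312 CPM in cmt3b eggs, where it did not pass the test (log2 fold change -0.03, edgeR adjusted p = 0.499), but 1511 and 2051 CPM in cmt3a eggs. In WT sperm it stood at 17.3 and 17.4 CPM, against 2057, 2530 and 2585 CPM in cmt3b sperm. This was the largest difference of the block in sperm (log2 6.84).

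The pair annotated as polymerase beta subunits were both higher in cmt3b meiocytes, cmt3a eggs and cmt3b sperm than in WT, but differed in size elsewhere. LOC_Os04g16820 had 52.9, 47.1 and 54.0 CPM in WT meiocytes and 173, 192 and 178 CPM in cmt3b meiocytes (edgeR adjusted p = 6.05e-23). LOC_Os04g16830 had 21.4, 23.3 and 21.8 CPM against 99.2, 116 and 110 CPM (log2 fold change 2.48 ± 0.06 SE, edgeR adjusted p = 2.54e-23). In eggs, LOC_Os04g16820 went from 228, 220 and 228 CPM in WT to 1821 and 1647 CPM in cmt3a, and LOC_Os04g16830 from 104, 93.6 and 105 CPM to 1001 and 861 CPM. In sperm they had 73.9 and 70.5 CPM, and 41.7 and 41.5 CPM, in the WT files, and 1008 to 1093 CPM and 456 to 529 CPM in cmt3b. The study lists both for cmt3b sperm, so their direction there is not independent evidence. Between WT meiocytes and WT microspores, LOC_Os04g16820 went from a mean of 51.3 to 154 CPM and LOC_Os04g16830 from 22.2 to 218 CPM. From WT to cmt3b, mean LOC_Os04g16820 went from 225 to 328 CPM in eggs and from 122 to 205 CPM in zygotes. Mean LOC_Os04g16830 went from 101 to 214 CPM in eggs and from 42.5 to 90.8 CPM in zygotes.

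Among the loci outside chromosome 4, 16 that the study annotates as photosystem proteins, Rubisco large subunit or chloroplast ribosomal proteins moved with the block. They were picked after the block's values were seen, from a list the study built on the rise in cmt3b sperm. Their summed level was 86.7 to 98.5 CPM in WT meiocytes and 349 to 372 CPM in cmt3b meiocytes, 233 to 267 CPM in WT eggs and 1467 to 1644 CPM in cmt3a eggs, and 501 to 517 CPM in WT microspores. In sperm it was 251 and 264 CPM in WT and 7907 to 8211 CPM in cmt3b. Of those tested, 15 of 15 rose in cmt3a eggs (19.6% of all features did), 10 of 16 in cmt3b eggs (14.3%), 10 of 13 in cmt3b zygotes (8.67%) and 15 of 15 in cmt3b meiocytes (10.7%). The block held 9.35 to 14.3 times the counts of these loci in all libraries outside sperm, 5.60 and 5.74 times in WT sperm and 2.88 to 3.08 times in cmt3b sperm. Whether the shift came from the nuclear loci, from plastid transcripts or from the cells collected was not tested.

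In the egg of cmt3a, 99 of 269 tested short arm loci rose and 46 fell (adjusted p below 0.01 and over 2-fold, edgeR quasi-likelihood test), where 19.6% of all 22744 tested features rose and 18.5% fell. The block supplied 49 of the 99, as all of its 49 tested loci rose, by 2.32 (LOC_Os04g16872) to 5.90 (LOC_Os04g16882) on the log2 scale with a median of 3.38. Outside the block, 50 of 220 loci rose (22.7%) and 46 fell (20.9%), and their median log2 fold change was 0.07, against 0.01 over all features. Long arm loci gave 18.6% and 18.3%.

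Outside the block, 15 of the short arm loci that had at most 3 counts in every WT egg library reached 0.5 CPM in both cmt3a egg libraries, of 1130 at that floor (1.33%, against 2.53% of all features). LOC_Os04g02120 had no count in WT eggs and 12.2 and 10.7 CPM in cmt3a eggs, at least 61.6-fold higher when 3 counts per library are taken as the floor. It stayed at or below 0.394 CPM in every library outside cmt3a eggs. LOC_Os04g02490 and LOC_Os04g13000 likewise had no count in WT eggs, with means of 2.65 and 2.27 CPM in cmt3a eggs (at least 14.3-fold and 12.2-fold higher). LOC_Os04g07784 had at most 0.0619 CPM in WT eggs and a mean of 2.68 CPM in cmt3a eggs. LOC_Os04g05570 rose in cmt3a eggs (3.96 and 4.77 CPM) and cmt3b eggs (1.97 and 1.05 CPM) from 0.273, 0 and 0.253 CPM in WT.

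Other loci fell. LOC_Os04g01740 had 23.8, 23.5 and 21.3 CPM in WT eggs and 0.164 and 0 CPM in cmt3a eggs. In cmt3b eggs it had no count at all, at least 77.2-fold lower. It also stood at 0.130 to 0.359 CPM in WT zygotes, while meiocytes kept it at 3.78 to 4.79 CPM in WT and 6.81 to 7.32 CPM in cmt3b. LOC_Os04g15800 fell in cmt3a eggs, with 12.4, 11.9 and 13.6 CPM in WT, 18.6 and 20.8 CPM in cmt3b, and 0.245 and 0.241 CPM in cmt3a (log2 fold change against WT -5.34 ± 0.22 SE, edgeR adjusted p = 7.01e-13, and against cmt3b -6.17 ± 0.24, edgeR adjusted p = 3.06e-15). LOC_Os04g11660 fell in cmt3a eggs from 3.24, 4.15 and 3.75 CPM to 0.164 and 0 CPM. LOC_Os04g02530 fell from 2.26, 2.60 and 1.85 CPM to 0.0818 and 0.0482 CPM, which are 2 and 1 counts.

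Loss of CMT3b in the egg left the arm nearer to WT. Of 239 tested loci, 34 rose and 31 fell, with a background of 14.3% higher and 8.43% lower among 21466 features. The block gave 16 of the 34, of 45 tested, with a median of 0.83 and a range from -0.04 to 2.33 (LOC_Os04g16834). None of its loci fell in edgeR, at an unadjusted p below 0.05 either, nor in DESeq2. Outside the block 18 of 194 loci rose (9.28%) and 31 fell (16.0%), where 8.21% of long arm loci fell. The falls included LOC_Os04g12080, with 14.4, 13.4 and 14.8 CPM in WT and 0.986 and 1.05 CPM in cmt3b, and LOC_Os04g11840, with 3.48, 4.64 and 4.47 CPM in WT and 0.493 and 0.176 CPM in cmt3b. LOC_Os04g08280 rose from 0.820, 0.681 and 0.970 CPM to 3.55 and 4.65 CPM (log2 fold change 2.52 ± 0.25 SE, edgeR adjusted p = 2.20e-10).

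The 2 egg comparisons share their WT libraries, so the mutants were also set against each other. In cmt3a eggs 106 of 244 tested short arm loci were higher than in cmt3b eggs and 27 were lower, against 17.7% and 19.3% of all 21694 features. All 49 tested block loci were higher in cmt3a, by a median of 2.49. Of the other 195 loci, 57 were higher (29.2%) and 27 lower (13.8%).

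In cmt3b zygotes 30 of 224 tested loci rose and 16 fell, with a background of 8.67% and 8.08% among 20638 features. The block held 23 of the 30, of 45 tested, with a median of 1.00. Outside it 7 of 179 rose (3.91%) and 16 fell (8.94%). LOC_Os04g01690 fell most, with 5.19, 5.46 and 5.72 CPM in WT zygotes and 0.639, 0.433 and 0.523 CPM in cmt3b zygotes (log2 fold change -3.27 ± 0.23 SE, edgeR adjusted p = 4.89e-12). It fell in both mutant eggs as well, from 21.8, 22.4 and 21.4 CPM to 3.94 and 5.97 CPM in cmt3b and 6.09 and 6.99 CPM in cmt3a. In sperm its direction was opposite, with 0.159 and 0.167 CPM in WT and 8.43, 7.47 and 5.54 CPM in cmt3b. LOC_Os04g10400 rose in cmt3b zygotes, from 2.66, 3.38 and 2.77 CPM to 8.82, 9.96 and 9.80 CPM. LOC_Os04g08749 and LOC_Os04g01650 fell there by 1.76 and 1.75 on the log2 scale.

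In cmt3b meiocytes 74 of 249 tested loci rose and 22 fell, where 10.7% of 23192 features rose and 7.90% fell. All 46 tested block loci rose, by 1.13 (LOC_Os04g16828) or more with a median of 2.10. The largest, LOC_Os04g16770, rested on 1 library, since it had 125, 8.65 and 6.63 CPM in cmt3b against 1.20, 1.41 and 2.22 CPM in WT, and its log2 fold change of 4.97 became 2.39 without cmt3b meiocyte replicate 1. Outside the block 28 of 203 loci rose (13.8%) and 22 fell (10.8%), with a median of -0.02.

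Among the rises outside the block in meiocytes was LOC_Os04g02360, annotated as a transposon protein of the CACTA, En/Spm class, a family of DNA transposons. It had 0.846, 0.745 and 0.899 CPM in WT meiocytes and 12.6, 13.3 and 11.9 CPM in cmt3b meiocytes (log2 fold change 4.08 ± 0.16 SE, edgeR adjusted p = 1.34e-18). In cmt3b eggs it had 1.77 and 1.14 CPM, and in cmt3b zygotes 1.79 to 2.49 CPM, within or below the 2.14 to 2.87 CPM of WT eggs and zygotes. LOC_Os04g16340, annotated as a retrotransposon protein, had 0, 0.248 and 0.180 CPM in WT and 0.960, 0.837 and 0.848 CPM in cmt3b. The study lists both for meiocytes, so their direction is not independent evidence.

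LOC_Os04g11195 was lost in cmt3b meiocytes. It had 10.6, 11.6 and 12.7 CPM in WT meiocytes and no count in any cmt3b meiocyte library, at least 64.7-fold lower. In sperm it was present in both genotypes, with 32.1 and 31.9 CPM in WT and 89.5, 80.1 and 82.7 CPM in cmt3b, and it was at or near 0 in microspores, eggs and zygotes. LOC_Os04g09800 fell in cmt3b meiocytes from 10.8, 9.85 and 11.4 CPM to 1.38, 1.28 and 1.30 CPM, and fell in cmt3a eggs to 1.27 and 1.21 CPM from 6.62 to 9.21 CPM.

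**Figure D3:**
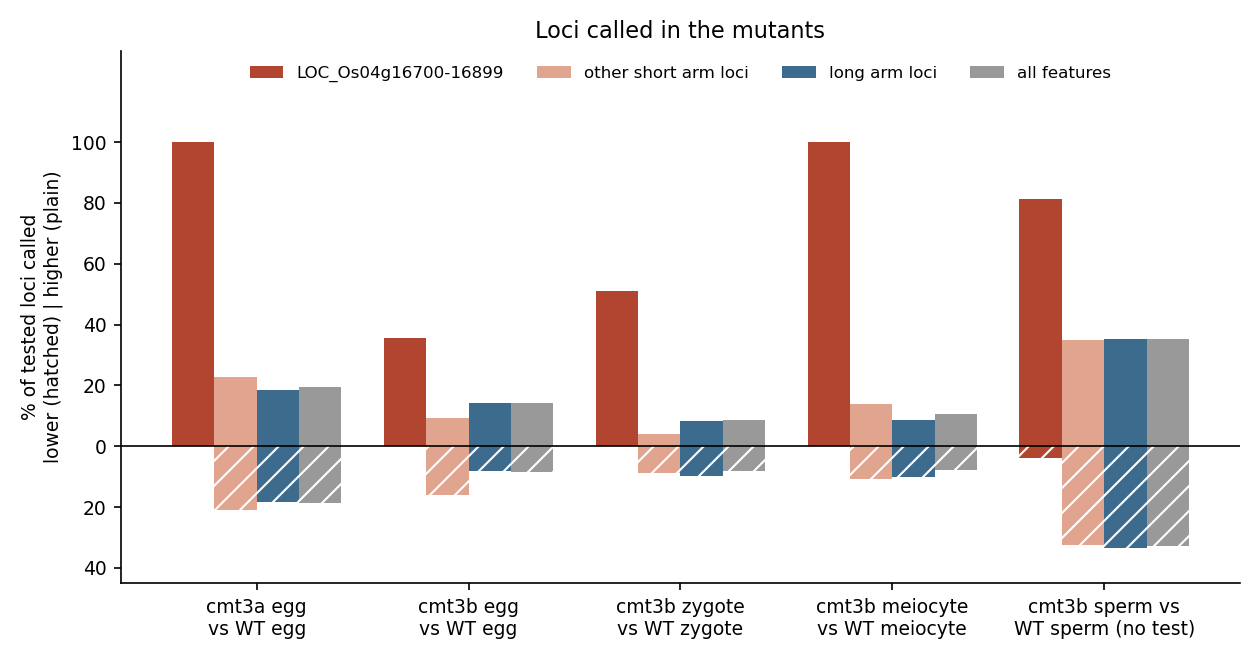
Bars give the percentage of tested loci higher (plain, above 0) or lower (hatched, below 0) in each mutant comparison, for the block LOC_Os04g16700 to LOC_Os04g16899, the other short arm loci, the long arm and all features. The block reached 100% higher in cmt3a egg and cmt3b meiocyte, while the other short arm loci lay between 3.91% and 34.9% higher.

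In sperm, where WT is 1 sample, a locus was counted when it differed over 2-fold in every cmt3b library, and no p-value is given. By that rule 132 of 308 short arm loci were higher and 85 lower, against 35.2% and 32.9% of 22567 features. The block gave 43 higher of 53, with a median of 3.80, and 2 lower. Of the other 255 loci 89 were higher (34.9%) and 83 lower (32.5%), close to the background in both directions. The tapetum list summed to 0.279 and 0.371 CPM in WT sperm and 69.4 to 83.0 CPM in cmt3b sperm, while the gamete fusion genes went from 4681 to 4703 CPM to 2808 to 3010 CPM. Their part in the sperm differences was not tested.

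Of 1099 short arm loci at the floor in WT sperm, 42 reached 0.5 CPM in every cmt3b sperm library (3.82%, against 7.38% of all features). LOC_Os04g14410 was one, with no count in WT sperm and 17.5, 16.5 and 16.7 CPM in cmt3b sperm, at least 101-fold higher. It was well detected elsewhere, at 49.9 to 53.2 CPM in WT eggs and 14.7 to 19.5 CPM in WT meiocytes. LOC_Os04g08740, LOC_Os04g14760 and LOC_Os04g02860 had the same form, from no count to means of 12.8, 12.4 and 14.9 CPM. LOC_Os04g14690 reached a far higher level, with 9.12 and 8.86 CPM in the WT files and 208, 203 and 212 CPM in cmt3b sperm. LOC_Os04g09350 went from 0.265 and 0.167 CPM to 68.1, 70.2 and 69.4 CPM.

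Among the loci lower in cmt3b sperm, the 4 with the largest falls had their highest WT level in sperm. Picking by the size of the fall favours such loci, and their share among the other lower loci was not counted. LOC_Os04g14360 had 12.0 and 11.9 CPM in WT sperm and no count in cmt3b sperm, at least 59.3-fold lower, and at most 0.158 CPM in any other library. LOC_Os04g05420 had 14.8 and 15.4 CPM in WT sperm and 0.0615, 0 and 0 CPM in cmt3b, and 2.64 to 3.23 CPM in WT microspores. LOC_Os04g05230 went from a mean of 9.68 CPM to no count, at least 47.9-fold lower, and LOC_Os04g13770 from a mean of 10.7 CPM to at most 0.0615 CPM.

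**Figure D4:**
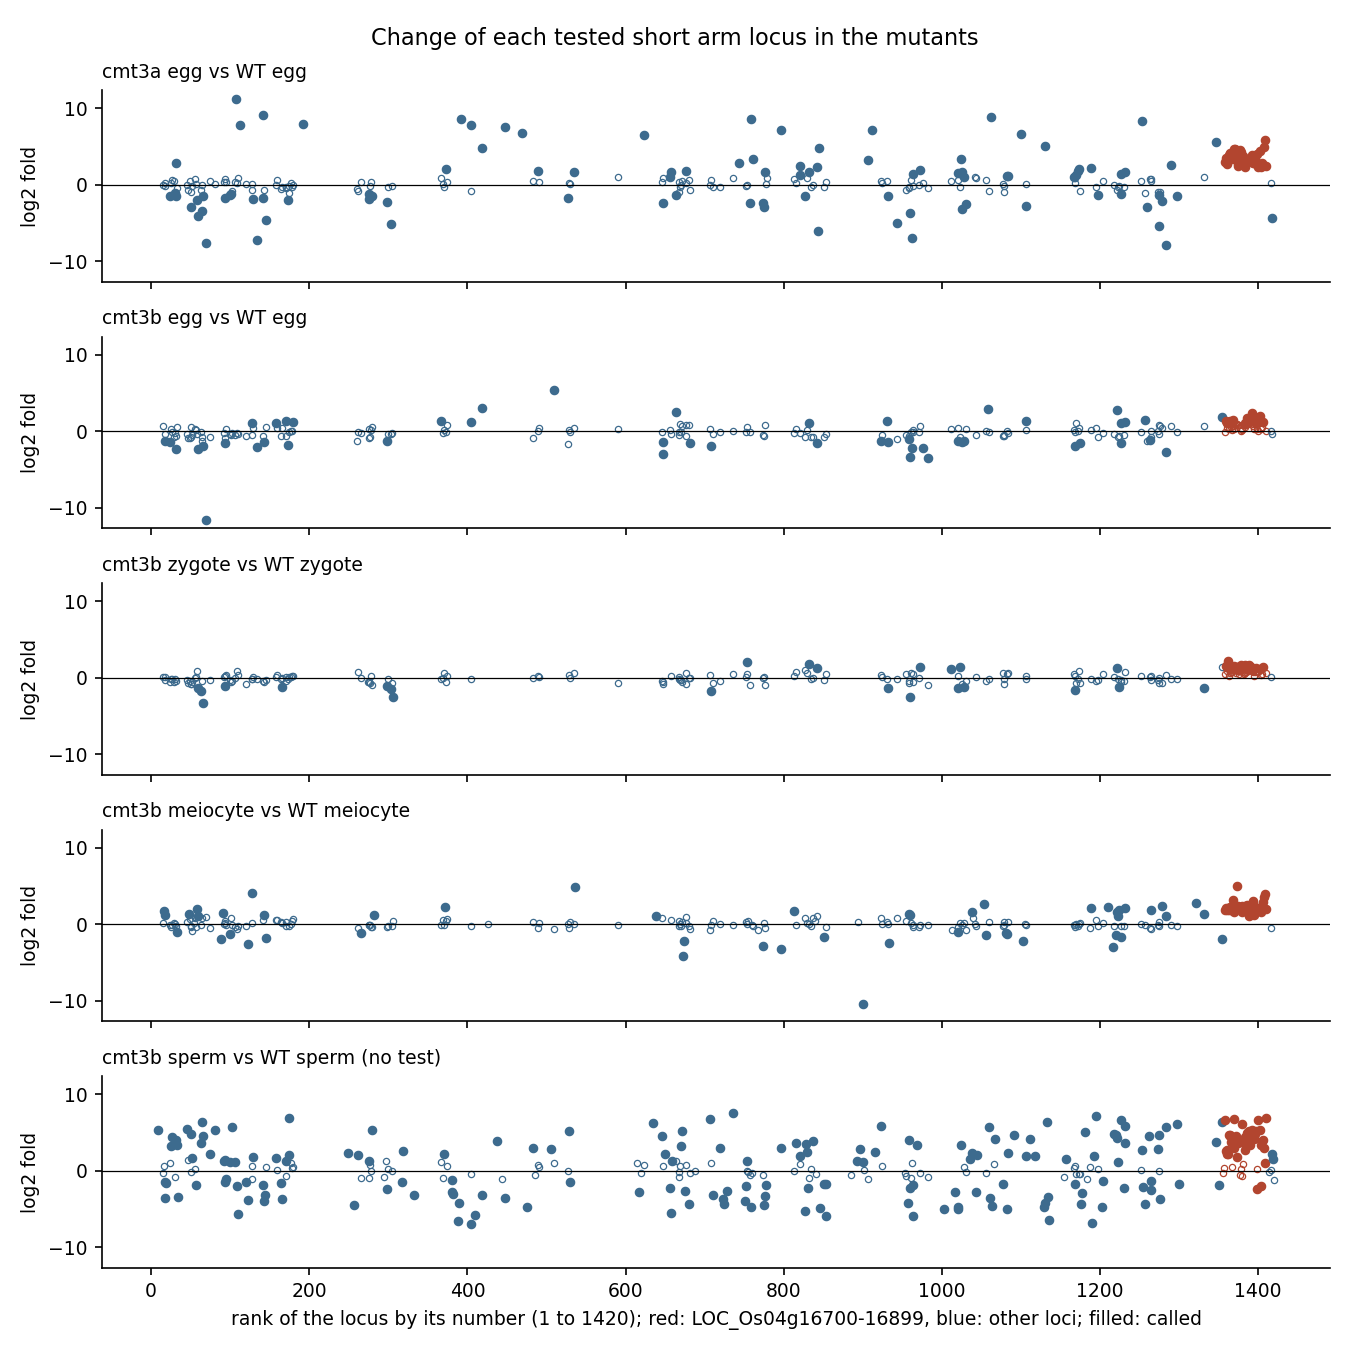
Each circle is 1 tested short arm locus, placed by the rank of its number from 1 to 1420 and by its log2 fold change, in the 5 mutant comparisons; filled circles were called and red circles are LOC_Os04g16700 to LOC_Os04g16899. The red loci sat together above 0 in cmt3a egg (2.32 to 5.90) and cmt3b meiocyte (1.13 to 4.97), and the other called loci were scattered on both sides of 0.

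Across the 5 mutant comparisons, block loci were called higher repeatedly, 13 of the 57 in all 5, 11 in 4 and 20 in 3. Outside the block 2 loci were higher in 4 comparisons and 1 in 3. LOC_Os04g14690 was higher in every cmt3b comparison, with 2.04, 1.79 and 2.59 CPM in cmt3b meiocytes against 0.480 to 1.41 CPM in WT and 3.85 and 3.51 CPM in cmt3b eggs against 0.469 to 0.759 CPM, and it stood at 0.368 and 0.193 CPM in cmt3a eggs. Its call in zygotes was lost with DESeq2 and on leaving out WT zygote replicate 1, WT zygote replicate 3 or cmt3b zygote replicate 1. LOC_Os04g14810 was higher in all but the zygote comparison, and LOC_Os04g10400 was higher in both egg comparisons and in the zygote. Called lower in 4 were LOC_Os04g04240 and LOC_Os04g11840, both in egg (cmt3a and cmt3b), zygote and sperm, and in 3 LOC_Os04g01610, LOC_Os04g01690, LOC_Os04g11540 and LOC_Os04g12460. The loci called lower in 3 or more were picked after their values were seen. How many of all features were called that often, higher or lower, was not counted, so these repeated calls have no background. LOC_Os04g11840 was higher in cmt3b meiocytes (1.38, 1.79 and 1.15 CPM against 0.540 to 0.846 CPM), where LOC_Os04g01610 was higher too.

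**Figure D5:**
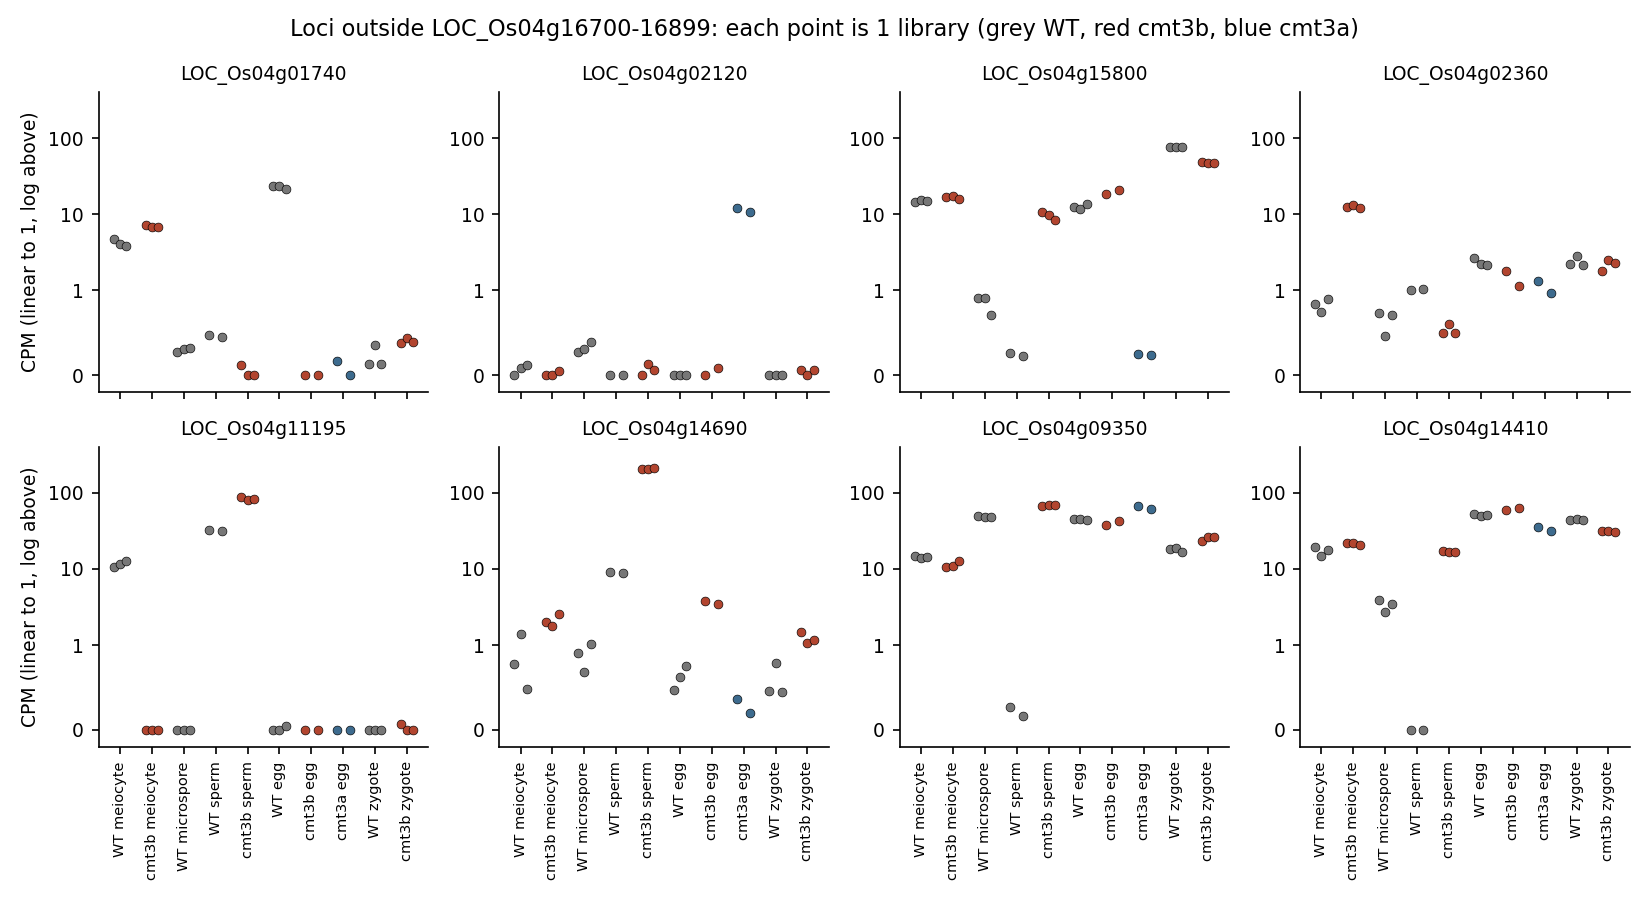
Each point is the CPM of 1 library for 8 loci outside the block, on an axis that is linear up to 1 CPM and logarithmic above. LOC_Os04g02120 reached 0.5 CPM in cmt3a egg alone (12.2 and 10.7 CPM), and LOC_Os04g01740 was lost in both mutant eggs. LOC_Os04g11195 was lost in cmt3b meiocyte but not in cmt3b sperm, and LOC_Os04g14410 was at 0 in WT sperm only.

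The study's tables name 18 short arm loci. Besides those above they include LOC_Os04g01140, CYP93G1, the flavone synthase II of rice, which rose in cmt3b meiocytes from 0.493, 1.08 and 0.300 CPM to 1.98, 1.40 and 1.70 CPM (log2 fold change 1.70 ± 0.33 SE, edgeR adjusted p = 5.71e-05) and stood at 17.0 and 16.6 CPM in WT sperm and 30.1 to 31.2 CPM in cmt3b sperm. LOC_Os04g13220, the ABC transporter ABCC10, had 11.7 and 11.8 CPM in WT sperm and 68.8, 76.8 and 74.1 CPM in cmt3b sperm. LOC_Os04g04060, a dynamin family protein, rose in cmt3b meiocytes from 1.41, 0.993 and 1.62 CPM to 2.22, 3.46 and 2.79 CPM. LOC_Os04g09654, annotated as the O-methyltransferase COMTL6, rose in cmt3a eggs to 2.78 and 4.10 CPM from 0.295 to 0.557 CPM. LOC_Os04g14220, a putative RPM1-type disease resistance protein (rNBS17), did not exceed 0.182 CPM in any library, and LOC_Os04g12110 not 0.0788 CPM. The study lists LOC_Os04g01140 and LOC_Os04g04060 for meiocytes and LOC_Os04g13220 for sperm, so their direction there is not independent evidence.

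Of the WT cell types, 3 pairs were tested. In microspores against meiocytes 130 of 278 tested loci were higher and 66 lower, where 29.7% and 32.3% of 23884 features were. In the block 47 of 48 loci were higher, by a median of 3.25, and outside it 83 of 230 were higher (36.1%) and 66 lower (28.7%). The tapetum list, at 36906 to 44824 CPM in these microspore libraries against 1629 to 1675 CPM in meiocytes, moved with the difference, and its part in it was not tested. In zygotes against eggs 19 of 239 loci were higher and 33 lower (13.1% and 9.64% of 21265 features), with 0 of 44 block loci higher in edgeR (0 at an unadjusted p below 0.05, and 0 in DESeq2) and 12 lower. In meiocytes against eggs 60 of 260 were higher and 88 lower (30.6% and 20.9% of 23516 features), with 27 of 44 block loci lower.

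The highest loci per length in WT cells lay partly outside the block. LOC_Os04g02670 led in meiocytes (3076 TPM), eggs (1265 TPM) and zygotes (1666 TPM), while in microspores the 3 leading loci were all in the block, LOC_Os04g16818 (1342 TPM), LOC_Os04g16816 (1279 TPM) and LOC_Os04g16772 (1158 TPM). In sperm LOC_Os04g11880 led with 404 TPM, followed by LOC_Os04g01590 (313 TPM) and LOC_Os04g16722 (267 TPM). LOC_Os04g15920 was a meiocyte locus, with 540 TPM there, 19.1 TPM in microspores and at most 3.45 TPM in the other WT cells. It rose in cmt3b meiocytes from 728, 759 and 706 CPM to 1340, 1225 and 1322 CPM.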

How the data were processed

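Counts, FPKM and TPM per locus of 27 RNA-seq libraries were used as deposited. Per the labels and the study's methods, the authors trimmed reads with fastp (0.20.1), aligned them with HISAT2, with MSU7.0 as the genome build, and made raw counts with featureCounts. Gene annotation came from the same release of the Rice Genome Annotation Project. The strand setting is not given in the sources used here, so overlapping and antisense loci may share reads. The deposited TPM values, normalized by the authors for length and depth, served for levels between loci, and the deposited FPKM values only to recover locus length. The 32 bisulfite libraries were not analysed here.

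CPM were computed per total count, without the TMM factors that enter the fold changes. Relative to ratios of mean CPM, those factors added 0.34 to the log2 fold changes in cmt3a egg, 0.23 in cmt3b egg, 0.03 in cmt3b zygote and 0.19 in cmt3b meiocyte, and -0.26 in sperm. Each comparison was fitted alone on counts with edgeR 4.0.16 in R 4.3.3 (quasi-likelihood test, TMM factors, filterByExpr with a minimum count of 10, Benjamini-Hochberg adjustment over all features), and a locus was called at adjusted p below 0.01 and over 2-fold. Sperm used log2 ratios with a prior count of 2. Locus fold changes against a group with at most 3 counts in every library are bounds, printed only where that group had no count, set at 3 counts in the smallest library, and cover counting error only. Named loci were, per mutant comparison, the 8 largest rises and 4 largest falls among called loci with at least 2 CPM and no overlap, the top 3 loci by TPM per WT cell type, loci higher in at least 3 mutant comparisons, and those in the study's tables. No short arm locus list had independent annotation, since the reference table at hand matched none of the locus identifiers. The members and lists were chosen with earlier results of these data known. Scripts were tested on simulated data. Figures were drawn with matplotlib 3.10.9. Alternatives were DESeq2 (1.42.0), its size factors, no filter, a replicate block, 1 fit over all groups, other detection limits and leaving out each library.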

Additional observations from a re-analysis of the deposited data

Results flagged for a closer look

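The effect of cmt3b, mutant against WT, was compared between cell types by an interaction term in edgeR, a test chosen after the data were seen, with the same limits for a call. Between egg and meiocyte the effect differed at 93 of 286 tested short arm loci, where 26.3% of all features differed. It was lower in egg at 73 (25.5%, against 11.9% of all features) and higher at 20 (6.99%, against 14.4%). Between zygote and meiocyte it differed at 85 of 269 loci, against 23.4% of all features. It was lower in zygote at 66 (24.5%, against 12.8% of all features). Between zygote and egg it differed at 45 of 248 loci, against 22.7% of all features. In the block, LOC_Os04g16700 to LOC_Os04g16899, 32 of 47 loci had a lower effect in egg than in meiocyte (median difference -1.35 on the log2 scale) and 29 of 47 a lower effect in zygote than in meiocyte (-1.24). Outside the block 41 of 239 loci were lower in egg than in meiocyte (17.2%, against 11.9% of all features).

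LOC_Os04g02360, the CACTA transposon locus, had an effect lower by 4.58 ± 0.31 (SE) in egg and by 4.22 ± 0.28 in zygote than in meiocyte on the log2 scale (edgeR adjusted p = 1.69e-15 and 4.58e-15). LOC_Os04g11840 had opposite directions, lower by 4.58 ± 0.50 in egg than in meiocyte (edgeR adjusted p = 6.78e-10).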

How the results depend on the processing

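The counts of called short arm loci stayed within 1.5 times of those given in 187 of 200 recomputed values. With no filter on low counts, 157 loci were higher in cmt3a egg, 25 were lower in cmt3b zygote, 338 were higher in WT microspore against meiocyte, 111 were higher in WT meiocyte against egg, and 145 were lower in cmt3b sperm. With all replicated groups in 1 fit, 26 were lower in cmt3b zygote. Without the block, the loci higher were 50 in cmt3a egg, 18 in cmt3b egg, 7 in cmt3b zygote, 28 in cmt3b meiocyte, 57 in cmt3a against cmt3b egg and 83 in WT microspore, and 21 were lower in WT zygote against egg. Among block loci alone, a split added after the data were seen, leaving out any 1 library gave 49 higher in cmt3a egg, 46 to 47 in cmt3b meiocyte, 14 to 18 in cmt3b egg, 21 to 24 in cmt3b zygote and 43 in cmt3b sperm. Replicate numbers did not pair the libraries (correlations of same-numbered deviations below 0.1 throughout), and with the replicate block the short arm gave 98 higher and 43 lower in cmt3a egg and 74 and 22 in cmt3b meiocyte. Over single loci, 61 of 3512 recomputed log2 fold changes lost a call, 31 gained one and none changed direction with a call. Leaving out 1 library ended a call of LOC_Os04g10400, LOC_Os04g11540, LOC_Os04g14760, LOC_Os04g14810, LOC_Os04g16728, LOC_Os04g16732 and LOC_Os04g16818 in cmt3b egg, of LOC_Os04g01610, LOC_Os04g04240, LOC_Os04g14690, LOC_Os04g16736, LOC_Os04g16775, LOC_Os04g16804 and LOC_Os04g16824 in cmt3b zygote, of LOC_Os04g01610, LOC_Os04g07920 and LOC_Os04g11840 in cmt3b meiocyte, and of LOC_Os04g08280, LOC_Os04g13220 and LOC_Os04g14150 in cmt3a egg. Detected loci moved by less than 1.5 times under every limit tried. The share of counts of the arm moved in every group when the block, LOC_Os04g16722 or the count scale was changed, as by TPM in cmt3b sperm (5.77%).

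Loci with few counts are at the edge of what these depths show. The DESeq2 size factors shifted the median of all features by -0.22 (log2) in sperm and by less than 0.1 in the other comparisons.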
